A study of Mus musculus with 10 samples.

Results

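Ctss, Lyz2 and Mpeg1 are 3 genes of 19505 measured in the mouse hypothalamus, and each encodes a protein with which myeloid cells degrade or attack what they take up. They were selected on their measured difference between old and young mice, so that difference is given below as a description, with no test. The Clariom S Mouse array, a 1-colour array of short oligonucleotide probes grouped into probe sets by transcript, measured messenger RNA. The Young group held 5 arrays of hypothalamus from male C57BL/6J mice aged 24 weeks, and the Old group 5 arrays of the same tissue, sex and strain at an age of 138 weeks. C57BL/6J is an inbred laboratory strain, and all mice were fed and watered freely under a regular light cycle, with no treatment or engineered allele named. Separate animals are not stated for the replicates, so every error and adjusted p below measures the spread between these samples, which may be technical.

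Cathepsin S, encoded by Ctss, is a cysteine protease of endosomes and lysosomes that cleaves the invariant chain of MHC class II and, unlike most cathepsins, stays active at neutral pH. Lyz2 encodes the lysozyme of macrophages and granulocytes, which cuts the peptidoglycan of bacterial cell walls, and its promoter drives a widely used myeloid Cre line. Mpeg1 encodes perforin-2, a pore-forming protein of macrophage endosomes related to the perforin of cytotoxic lymphocytes. In the brain, microglia are the main resident myeloid cells. Macrophages of the brain borders and blood monocytes and neutrophils are other sources of such transcripts.

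The 250 bases upstream of each RefSeq transcription start (assembly GRCm38.p6) are shown as a description. That all 3 transcripts were higher in Old arrays follows from how they were selected, so no shared motif is inferred from it. All 3 genes matched the RefSeq table, with 1 window each. The Ctss window is chr3:95526536-95526785 on the plus strand, the Lyz2 window chr10:117282273-117282522 on the minus strand, and the Mpeg1 window chr19:12460520-12460769 on the plus strand. Capitals mark matches to 5 searched motifs.
Ctss: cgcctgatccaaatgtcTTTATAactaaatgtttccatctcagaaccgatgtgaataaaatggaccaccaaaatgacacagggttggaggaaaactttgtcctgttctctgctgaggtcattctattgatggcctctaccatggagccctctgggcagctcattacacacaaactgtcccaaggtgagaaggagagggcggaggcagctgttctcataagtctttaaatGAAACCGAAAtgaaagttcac
Lyz2: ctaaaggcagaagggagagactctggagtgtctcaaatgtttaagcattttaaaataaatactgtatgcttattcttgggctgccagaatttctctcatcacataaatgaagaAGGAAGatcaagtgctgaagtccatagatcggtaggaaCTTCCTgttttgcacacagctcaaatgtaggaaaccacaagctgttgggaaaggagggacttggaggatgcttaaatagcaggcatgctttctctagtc
Mpeg1: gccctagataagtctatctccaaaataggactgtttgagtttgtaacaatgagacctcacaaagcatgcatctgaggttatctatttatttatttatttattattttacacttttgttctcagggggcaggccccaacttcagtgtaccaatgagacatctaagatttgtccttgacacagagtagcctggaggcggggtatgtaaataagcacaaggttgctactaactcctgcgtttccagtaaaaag

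The motifs were searched on both strands, with overlaps between motifs allowed. The Ctss window held the core of an interferon response element (GAAA repeated after a spacer of 2 bases) as GAAACCGAAA from 21 to 12 bases before the start, and 2.98% of 32851 RefSeq windows of the same length held this motif. Ctss also held TATAAA on the opposite strand, from 233 to 228 bases before the start, where 12.4% of windows held it. The Lyz2 window held AGGAAG, a motif that PU.1 and other ETS factors can bind. It lay on the gene strand from 137 to 132 bases and on the opposite strand from 99 to 94 bases before the start. The shorter GGAA within it was not searched alone, so no window is said to lack an ETS core. AGGAAG was in 29.5% of windows. The composite ETS and IRF motif, GGAA and GAAA with a spacer of 2 bases (2.30% of windows), and the E-box CACGTG, which TFEB and MITF can bind (6.02%), matched 0 of the 3 windows. The Mpeg1 window had 0 matches, which says only that these letters are not in these 250 bases. No searched motif matched in more than 1 of the 3 windows.

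Each of the 3 genes was higher in the Old hypothalamus, and no Old array overlapped a Young array for any of them. Values are the deposited log2 signal, taken as log2 because of its range, since the file states no base; folds depend on that. Per-array values precede the means.

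Ctss had 8.09, 8.22, 8.21, 8.08 and 8.15 log2 in Young 1 to Young 5, and 8.97, 9.09, 9.05, 9.20 and 8.98 log2 in Old 1 to Old 5. The lowest Old value was 0.75 log2 above the highest Young value, against a range of 0.14 within Young and 0.23 within Old. The means were 8.15 ± 0.0638 and 9.06 ± 0.0931 log2 (SD, n = 5), so Old was higher by 0.91 (SE 0.0475), that is 1.88-fold. The gap between the ages was therefore wider than the whole range of either group.

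Lyz2 had 6.38, 6.34, 6.71, 6.38 and 6.56 log2 in Young 1 to Young 5, and 7.52, 7.41, 7.11, 7.42 and 7.12 log2 in Old 1 to Old 5. Young 3 stood highest of the Young arrays, and Old 3 and Old 5 lay below the other Old arrays. The means were 6.47 ± 0.16 and 7.32 ± 0.191 log2 (SD, n = 5), so Old was higher by 0.84 (SE 0.105), that is 1.80-fold. The gap between the ages was 0.40 log2, about as wide as the range within Young (0.38) and within Old (0.41), so Lyz2 had the widest spread of the 3 genes in both groups.

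Mpeg1 had 6.62, 6.40, 6.51, 6.51 and 6.54 log2 in Young 1 to Young 5, and 7.30, 7.23, 7.10, 7.28 and 7.19 log2 in Old 1 to Old 5. Its ranges were 0.22 in Young and 0.20 in Old, with a gap of 0.47 log2 between the ages. The means were 6.52 ± 0.0783 and 7.22 ± 0.0811 log2 (SD, n = 5), so Old was higher by 0.70 (SE 0.0475), that is 1.63-fold. The difference between the age means held 97.6% of the variance of Ctss over the 10 arrays, 87.8% of that of Lyz2 and 96.1% of that of Mpeg1.

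**Figure D1:**
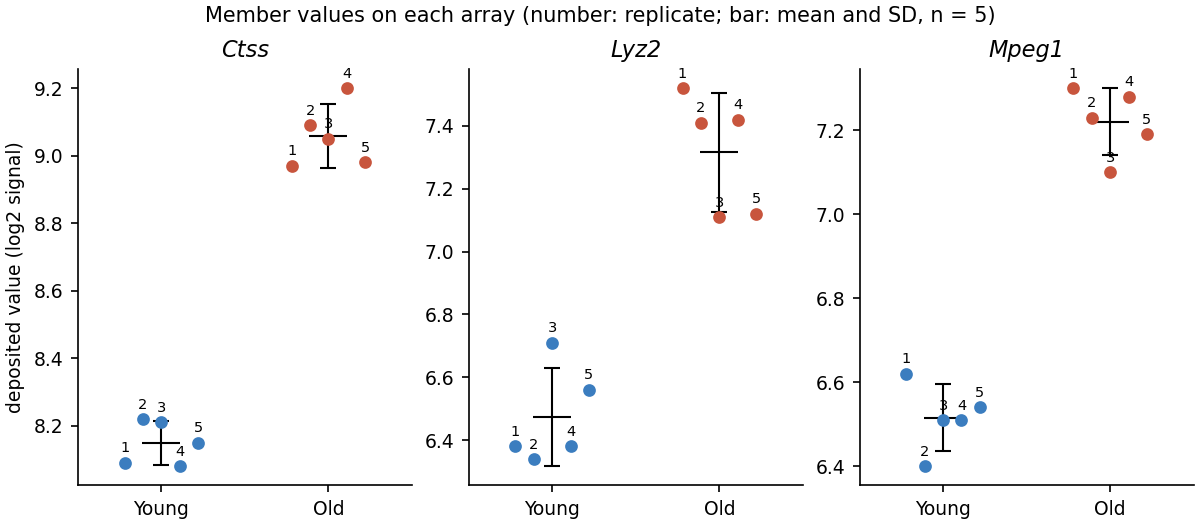
Deposited log2 signal (y axis) of Ctss, Lyz2 and Mpeg1 on each Young and Old array, with the replicate number at each point and the mean and SD of each age (n = 5) as bars. Every Old point lies above every Young point in each panel, and the gap is 0.75 log2 for Ctss, 0.40 for Lyz2 and 0.47 for Mpeg1.

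In bulk tissue a higher level cannot be assigned to more cells of a type or to more RNA per cell; these cannot be told apart here. The difference ranked 4 (Ctss), 5 (Lyz2) and 10 (Mpeg1) from the largest rise among the 19505 genes. The same separation, with the lowest Old array above the highest Young one, was found in 0.836% of all genes and in 20.7% of the 276 genes whose values varied, defined below. Over all genes 0.190% were called higher and 0.0308% lower with limma, which compares the means with a spread moderated across genes, at a Benjamini-Hochberg adjusted p under 0.05. That is 37 genes higher and 6 lower, where quantile normalization gave 154 and 6464, of which 6472 were genes with almost no deposited spread. In the varying genes alone these shares were 24.6% and 11.2%. The 3 genes were chosen from this contrast, so nothing is read from where they stand in it.

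**Figure D2:**
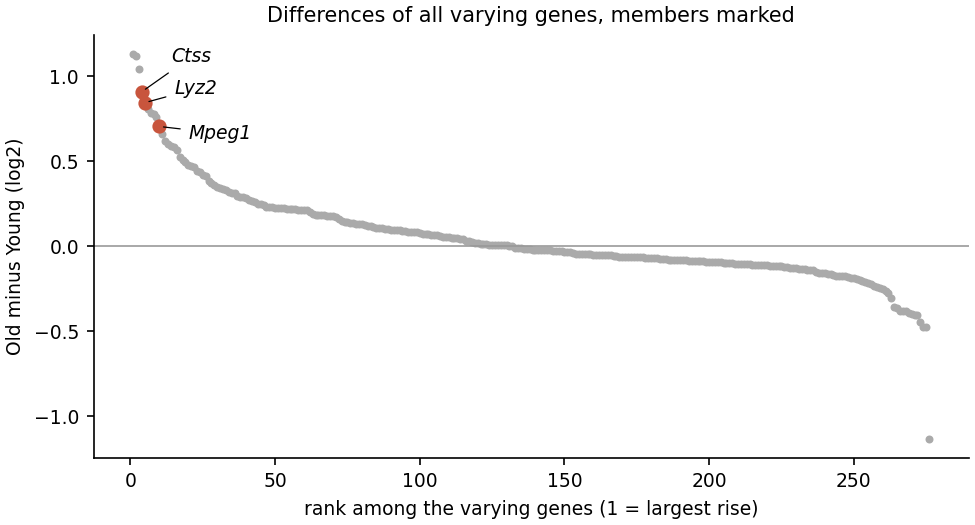
Old minus Young difference in log2 (y axis) of the 276 varying genes, ordered from the largest rise to the largest fall (x axis), with Ctss, Lyz2 and Mpeg1 marked. The marked genes stand at ranks 4, 5 and 10, at 0.91, 0.84 and 0.70 log2.

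Levels of different probe sets are not comparable, but the difference between probe sets within an array can be followed across ages. Ctss minus Lyz2 was 1.68 ± 0.15 log2 in Young and 1.74 ± 0.19 in Old (SD, n = 5), and the ages overlapped almost entirely. Ctss minus Mpeg1 was 1.63 ± 0.13 in Young and 1.84 ± 0.11 in Old, with a range of 1.47 to 1.82 among Young arrays and 1.67 to 1.95 among Old arrays. Lyz2 minus Mpeg1 was -0.04 ± 0.17 in Young and 0.10 ± 0.12 in Old, again with overlap. The 3 genes were thus higher in Old by amounts that differed by 0.06 to 0.21 log2, and for each pair the ages overlapped.

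Within an age, the arrays did not fall in 1 order for all 3 genes. Old 1 was highest of the Old arrays for Lyz2 and Mpeg1, at 0.21 and 0.08 log2 above the Old mean, and lowest for Ctss, at -0.09. Old 4 lay above the Old mean for all 3, by 0.14 (Ctss), 0.11 (Lyz2) and 0.06 (Mpeg1), and Old 5 below it, by -0.08, -0.20 and -0.03. Among Young arrays, Young 2 was highest for Ctss and lowest for both Lyz2 and Mpeg1. Deviations from the age means had a Pearson r of 0.55 between Lyz2 and Mpeg1, 0.31 between Ctss and Lyz2 and -0.14 between Ctss and Mpeg1 over the 10 arrays. These are descriptions, and no test of them was run.

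**Figure D3:**
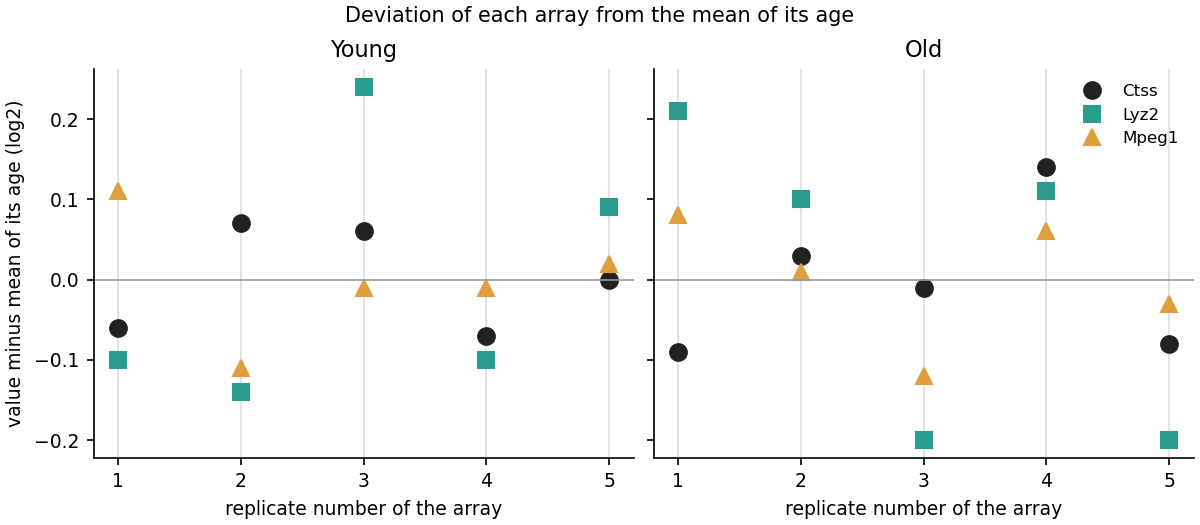
Value minus the mean of its age in log2 (y axis) for Ctss, Lyz2 and Mpeg1 on each array (x axis, replicate number), Young on the left and Old on the right. Old 4 lies above 0 and Old 5 below 0 for all 3 genes, while Old 1 is highest for Lyz2 and Mpeg1 and lowest for Ctss.

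How far other genes of these pathways can be compared is limited by the deposited values. In 19118 of the 19505 genes the 10 values had an SD within 1% of 1e-05 log2, and such genes are called collapsed. They have a level, but their values cannot show the size of any change. The term varying is used for the 276 genes with an SD of 0.01 log2 or more; 111 genes lay between these classes. Whether the differences of varying genes were reduced too is unknown. Ctss, Lyz2 and Mpeg1 were all varying, each with 1 probe set.

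Close relatives and genomic neighbours of the 3 genes were all collapsed, as were 19118 of the 19505 genes, so nothing is read from this. Of the 11 other cathepsins measured 0 varied, among them Ctsb at 10.88 log2, Ctsl at 8.27, Ctsz at 7.59 and Ctsk at 5.76; Ctsk, the bone-resorbing cathepsin K, neighbours Ctss in the RefSeq order. Lyz1, whose lysozyme is nearly identical to that of Lyz2, lies beside it and was collapsed at 5.84 log2. Because the copies are so alike, the Lyz2 probe set may take signal from Lyz1 transcripts, and this was not tested. Neighbours of Mpeg1 in that order are Pfpl and Dtx4, collapsed at 5.45 and 7.27 log2. Prf1, the perforin of cytotoxic lymphocytes, was collapsed at 5.75 log2, as were the 5 complement pore components measured (C6, C7, C8a, C8b and C9).

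For most of the lysosomal machinery around these effectors, as for most genes of the file, the deposited values cannot show a change. Of 77 measured genes for the other cathepsins, their inhibitors, lysosomal hydrolases and lysosomal membrane and proton pump proteins, 2 (2.60%) varied, against 1.42% of all genes. An unadjusted limma p under 0.05 was found in 6 of the 77, beside 1331 of all 19505 genes. With limma over all genes 0 of the 77 were called in either direction, beside 0.190% of all genes called higher and 0.0308% lower. In the varying genes alone 0 of the 2 were called, beside 24.6% of the 276 varying genes called higher and 11.2% lower. Nothing is read from these counts about lysosomal genes. The median difference of the 77 was 8.62e-07 log2, beside -8.74e-08 over all genes.

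Laptm5, a lysosomal membrane protein of blood and myeloid cells, had 8.33, 8.13, 8.28, 8.16 and 8.11 log2 in Young and 8.29, 8.45, 8.45, 8.53 and 8.20 in Old. The ages overlapped, with a difference of 0.18 (SE 0.0684, limma adjusted p = 0.671 in the full fit and 0.0604 when only varying genes were fitted). Lamp2, a structural protein of the lysosomal membrane, differed by 0.08 (SE 0.0312, limma adjusted p = 0.661 and 0.0836), also with overlap. Cst3, which encodes the secreted inhibitor cystatin C, and Cst7, an inhibitor that activated microglia make, stood at 11.73 and 6.20 log2 on every array. Lamp1 (10.05 log2) and Tfeb (7.46), a transcription factor for lysosomal genes, were collapsed.

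Besides Ctss, whose product trims the invariant chain, 10 genes of MHC class II presentation were measured, and 0 varied; with 1.42% of all genes varying, nothing is read from this about MHC class II.

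Among 114 measured genes of the myeloid lists other than the 3 described, 9 (7.89%) varied, and each of the 9 was higher in Old on average. None of the 9 came from the lists of homeostatic microglia, border-associated macrophages or monocytes. Other cells can express listed genes too, and which cells made these transcripts was not tested. Over all genes 1.42% varied, and 131 of the 276 varying genes were higher in Old. With limma over all genes 6 of the 114 (5.26%) were called higher and 0 lower, against 0.190% of all genes called higher. They were B2m, Fcgr2b, Fcgr3, Ly86, Dock2 and Trem2, of which Dock2 and Trem2 did not vary and differed by 0.0122 and 0.00167 log2. These lists were chosen with earlier results of the data known, and nothing is called particular to them from the counts. Without Young 3 and Young 5, which stand apart below, 2 of the 6 were called, B2m and Fcgr2b. In the varying genes alone 7 of the 9 were called higher and 0 lower, against 24.6% and 11.2% of the 276 varying genes. With quantile normalization 8 were called higher and 30 lower among the 114, and 0 higher and 29 lower among the 77 lysosomal genes. Over all 19505 genes that setting called 154 higher and 6464 lower, and 6472 of these calls were collapsed genes. Nothing is read from these counts about either list.

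B2m, which encodes the light chain of MHC class I, rose from 10.01 ± 0.124 to 10.68 ± 0.0703 log2 (SD, n = 5), by 0.66 (SE 0.0601, limma adjusted p = 0.00252). Fcgr3, an activating receptor for antibody, had 7.25, 7.12, 7.17, 6.89 and 7.01 log2 in Young and 7.56, 7.66, 7.59, 7.69 and 7.43 in Old. It rose by 0.50 (SE 0.074, limma adjusted p = 0.0408), a call lost when any 1 of 8 single arrays (all but Young 1 and Old 5) was left out, at adjusted p from 0.0657 to 0.125, when Young 3 and Young 5 were both left out (0.326), with a trended robust prior (0.0972) and without moderation (0.109). The inhibitory receptor gene Fcgr2b rose by 0.38 (SE 0.0338, limma adjusted p = 0.00241), with all Old arrays from 6.70 to 6.78 and all Young from 6.25 to 6.44 log2. Ly86, a partner of a Toll-like receptor homologue, rose by 0.33 (SE 0.0334, limma adjusted p = 0.00395; 0.0532 without Young 3 and Young 5). For these genes too the Old and Young arrays did not overlap, as in 20.7% of the 276 varying genes. They were named because this contrast called them, so nothing is read from that separation.

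Spi1, which encodes PU.1, the master transcription factor of myeloid cells, had 7.63, 7.34, 7.43, 7.41 and 7.31 log2 in Young and 7.62, 7.65, 7.66, 7.60 and 7.50 in Old. Young 1 lay among the Old arrays. The difference was 0.18 (SE 0.0591), with a limma adjusted p of 0.599 in the full fit and 0.0397 when only varying genes were fitted. Apoe, a lipid carrier, and Fth1, the ferritin heavy chain, were higher by 0.09 and 0.11, with limma adjusted p of 0.242 and 0.114 in the full fit and of 0.0245 and 0.00828 when only varying genes were fitted. Cd9, a tetraspanin, differed by 0.14 (limma adjusted p = 0.727 and 0.100) and overlapped.

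**Figure D4:**
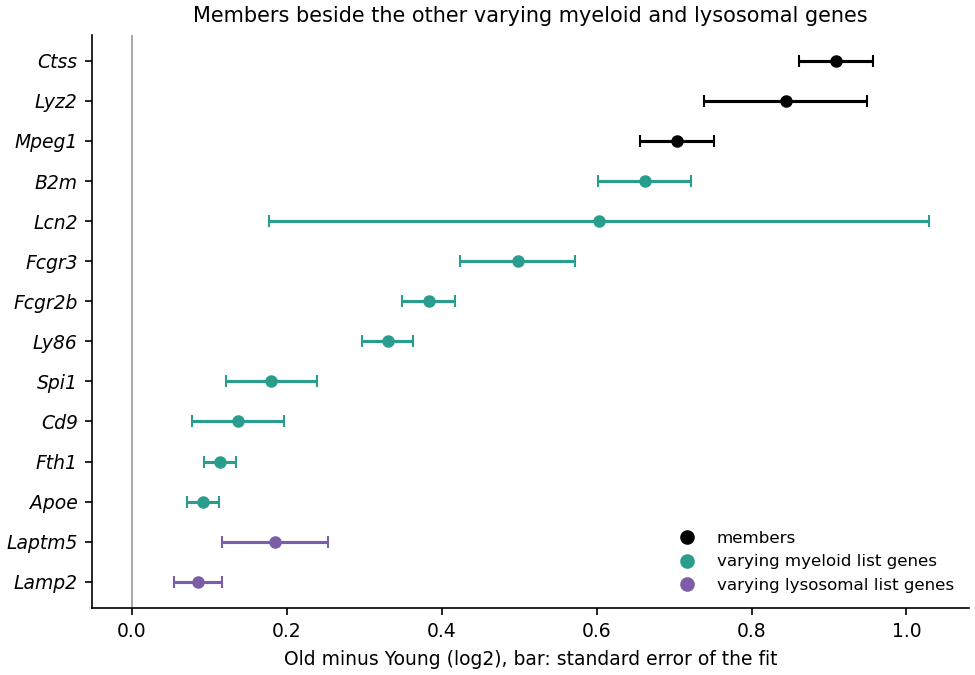
Old minus Young difference in log2 (x axis) with its standard error for Ctss, Lyz2 and Mpeg1 (black), the 9 other varying genes of the myeloid lists (green) and the 2 varying genes of the lysosomal lists (purple). All points lie above 0, from 0.08 for Lamp2 to 0.91 for Ctss, and the error of Lcn2 (SE 0.426) is the widest.

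Markers that would tell the myeloid cell types apart were mostly collapsed, as were 19118 of the 19505 genes. Of 13 measured genes of homeostatic microglia 0 varied, including Tmem119 at 7.31 log2, P2ry12 at 8.29 and Cx3cr1 at 6.99. The general microglia and macrophage genes Csf1r (8.24), Itgam (7.14), Tyrobp (6.61), Fcer1g (6.90) and Irf8 (6.39) were collapsed too. Aif1, a calcium-binding protein of microglia, lay between, with a difference of 0.00175 log2. Its ages did not overlap, with every Old value higher, as in 0.836% of all genes. None of 12 genes of border-associated macrophages, such as Mrc1 (6.03 log2), 10 of monocytes, such as Ccr2 (5.31), or 15 of lymphocytes varied. The part of each cell type in the differences of Ctss, Lyz2 and Mpeg1 was therefore not tested, and no detection call was used to say which markers were above background.

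Of 14 measured neutrophil genes only Lcn2 varied; it encodes lipocalin 2, which reactive astrocytes also make, and S100a8, an abundant neutrophil transcript, was collapsed at 5.47 log2. Lcn2 had 5.83, 5.78, 7.34, 5.76 and 5.88 log2 in Young and 6.89, 7.95, 6.22, 6.42 and 6.14 in Old. The difference was 0.60 (SE 0.426, limma adjusted p = 0.870 in the full fit). Young 3 was the highest Young array for both Lcn2 and Lyz2; 4 of 5 Old arrays lay below it for Lcn2 and 0 for Lyz2. The mean level of the 14 neutrophil genes lay within 6.032 to 6.145 log2 on the Young arrays and 6.059 to 6.188 on the Old arrays. Because the other 13 genes were collapsed, this mean follows Lcn2 alone and adds nothing about neutrophils. The part of neutrophils in the Lyz2 values was not tested.

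Young 3 and Young 5 stood apart for transcripts of other tissues. Young 3 had Alb, the liver albumin, at 6.87 log2 and Mup2, a liver urinary protein, at 7.35, where the highest other array had 6.34 and 6.39. Young 5 had Ttr, which choroid plexus makes in bulk, at 12.44 log2 against at most 7.97 elsewhere. The mean of 9 liver genes, of which only Alb and Mup2 varied, lay within 5.993 to 6.254 log2 on Young and 5.994 to 6.042 on Old arrays. That of 9 choroid plexus genes, of which 7 varied, lay within 6.583 to 8.130 on Young and 6.593 to 6.710 on Old arrays. Without both arrays Ctss was higher in Old by 0.93 (SE 0.059), Lyz2 by 0.95 (SE 0.11) and Mpeg1 by 0.71 (SE 0.062). Young 3 and Young 5 were the highest Young arrays for Lyz2 (6.71 and 6.56 log2), so leaving them out could only raise its difference. The part of other tissues in these values was not tested. Of 14 measured genes listed for the hypothalamus, 4 varied and 9 were collapsed. Of its neuronal peptides, Pmch lay between 10.25 and 10.48 log2 and Hcrt between 8.91 and 9.21 on all arrays. Levels of different probe sets are not comparable and no detection call was used, so these levels do not test the tissue label. Avp, which encodes vasopressin, had a Young mean of 9.06 ± 0.188 and an Old mean of 9.68 ± 0.234 log2 (SD, n = 5). The limma adjusted p of Avp was 0.182 in the full fit and 0.00353 when only varying genes were fitted. Its ages did not overlap, with every Old value higher, as in 20.7% of the 276 varying genes.

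**Figure D5:**
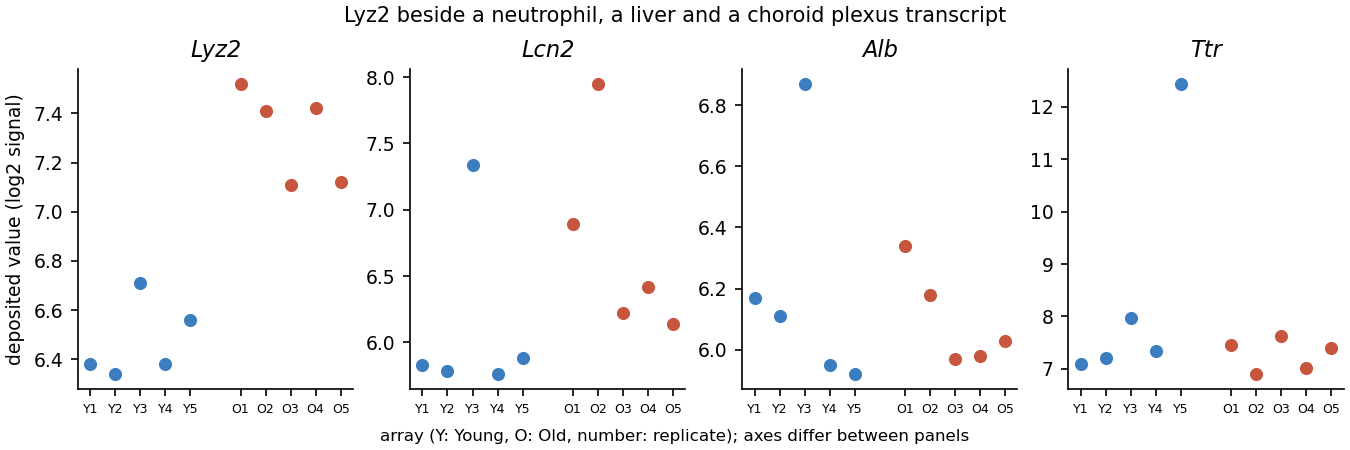
Deposited log2 signal (y axis, a different range in each panel) of Lyz2, Lcn2, Alb and Ttr on each array (x axis). Young 3 is the highest Young array for Lyz2 (6.71), Lcn2 (7.34) and Alb (6.87), and Young 5 stands apart for Ttr (12.44).

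The genes whose values over the 10 arrays were most like those of each of the 3 were named by the highest Pearson r among the 276 varying genes, as a description. For Ctss they were C4b (r = 0.990), H2-D1 (0.981), Pcdhb2 (0.979), Pcdhb4 (0.975) and C4a (0.974). C4b encodes complement C4, C4a a close relative of it, H2-D1 a classical MHC class I chain, and the Pcdhb genes beta protocadherins, adhesion proteins of neurons. Whether the C4a and C4b probe sets take signal from each other's transcripts was not tested. For Lyz2 they were H2-D1 (0.958), Mpeg1 (0.957), B2m (0.956), Serpina3n (0.956), a protease inhibitor of reactive astrocytes, and C4b (0.954). For Mpeg1 they were Serpina3n (0.979), C4a (0.975), C4b (0.973), Pcdhb14 (0.971) and Ctss (0.964).

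These r values rest largely on the 2 ages lying apart. Over deviations from the age means, the r of Ctss was 0.68 with C4b and with Pcdhb2, 0.50 with C4a, 0.45 with Pcdhb4 and 0.44 with H2-D1. That of Mpeg1 was 0.72 with Serpina3n, 0.56 with C4a, 0.28 with C4b, 0.13 with Pcdhb14 and -0.14 with Ctss, and that of Lyz2 lay between 0.52 and 0.59 with its 5 genes. C4b differed by 1.13 log2 (SE 0.0723) between the ages, Serpina3n by 0.81 (SE 0.0828) and H2-D1 by 0.46 (SE 0.0321), beside 0.91, 0.84 and 0.70 for Ctss, Lyz2 and Mpeg1.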

How the data were processed

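As deposited by the authors, the log2 values had been summarised to probe sets; the background correction and normalization behind them were not given in the sources used here. Values were read as log2 from their range (5.00 to 12.97), with array medians from 6.778 to 6.783, and no detection call was used. The number of arrays limits the precision. Of 22206 probe sets, 19572 have 1 symbol in the platform annotation, 0 several and 2634 are unnamed here; all 19572 gene identifiers matched RefSeq (GRCm38.p6). The probe set with the highest mean was kept per gene.

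Old was compared with Young over all genes with limma 3.58.1 in R 4.3.3 (lmFit, eBayes; prior SD 7.0e-06 log2, prior df 1.04), a Benjamini-Hochberg adjusted p under 0.05 as the call, and again over the 276 varying genes alone. The procedure was tested on simulated data, which cannot show how the deposited values came to be collapsed. Members, lists, motifs and alternatives were chosen with earlier results of these data known. Named genes were the members, a fixed set of lysosomal and myeloid genes, list genes past the threshold (up to 4 a list by p) or varying (up to 4 more by size), and the 5 genes most like each member. From lists of other tissues, only genes marking arrays that stand apart are named. Dock2, Trem2 and Aif1 were not varying; Ctsk, Pfpl, Dtx4 and the complement pore genes were named after their values were seen. Some genes of the fixed set were not analysed here.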

Additional observations from a re-analysis of the deposited data

Results flagged for a closer look

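For the 3 members and 22 other named varying genes, the highest or lowest array of each age was set against its nearest neighbour. In 4 of 50 groups 1 array stood off, with a gap above 0.71 of the group's range, which chance gives in about 1 in 20 groups. Genes from lists of other tissues, such as Alb, were named for arrays that stand apart. The count is therefore not compared with that share. None of the 4 was a group of Ctss, Lyz2 or Mpeg1. Young 3 was highest for Lcn2 (7.34 log2, the nearest Young array at 5.88) and for Alb (6.87 against 6.17). Young 5 was highest for Ttr (12.44 against 7.97) and for Gfap, the intermediate filament of astrocytes (9.13 against 8.90).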

How the results depend on the processing

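Of 18 alternatives for the differences of Ctss, Lyz2 and Mpeg1, 5 leave a difference of means as it is by construction. In the other 13 the values, which also chose the genes, were 0.87 to 0.93, 0.79 to 0.95 and 0.68 to 0.74 log2, within 1 SD between replicates of those reported. With 1 array left out they were 0.87 to 0.93, 0.79 to 0.90 and 0.68 to 0.74. Calls over all genes were 37 higher and 6 lower. They were 154 and 6464 with quantile normalization, where 6472 calls were collapsed genes; 10 and 1 with the replicate block; 22 and 2 without Young 3 and Young 5; and 68 and 31 in the varying genes alone, or 58 and 21 there with the replicate block. A trended robust prior gave 10 lower. With 1 array left out, 25 to 37 genes were higher and 4 to 9 lower.
Of all 294 listed genes measured, 7 were called higher (the 6 myeloid genes and Gfap) and 0 lower. Of the 294, 37 had an unadjusted limma p under 0.05, beside 1331 of all 19505 genes. With quantile normalization 12 listed genes were higher and 73 lower, among the latter 30 myeloid and 29 lysosomal (154 and 6464 over all genes). The replicate block left 1 higher, the myeloid gene Trem2, with limma adjusted p of 0.158 for B2m, 0.112 for Fcgr2b, 0.384 for Fcgr3 and 0.207 for Ly86; leaving out Young 3 and Young 5 left 3, of which 2 were myeloid; a trended robust prior gave 4 higher and 1 lower and an unmoderated model 4 higher. In the varying genes alone 2 were lower, and 1 with the block. Leaving out single arrays gave 4 to 6 higher (4 without Young 2, Young 3, Young 4, Old 1 or Old 4), and 4 to 5 of the 6 myeloid genes. Ttr was higher by 0.06 without Young 3 and Young 5, and Alb by 0.02; all arrays gave -1.13 and -0.10. With 1 array left out Alb was at -0.18 to 0.06, the latter without Young 3; the cause was not tested. Of 416 values of other named genes, 372 kept direction and side of the threshold, 33 lost the call, 8 gained it and 3 turned.
Arrays of the same replicate number did not deviate together (r from -0.22 to 0.28 over the varying genes), so the numbers do not pair the arrays. The replicate block and the varying genes together were added after seeing the data. Background signal was not used here, so which levels lie above it is not stated.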
